A study of Mus musculus with 18 samples.

Results

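CD4+CD8α+ T cells of the small intestine were compared between the epithelium (intraepithelial cells, IEL DP) and the lamina propria, the connective tissue beneath it (LP DP). There are 3 libraries from each site, 6 of the 18 in the series. Every gene with a normalised read count of at least 10 in at least 3 of these 6 libraries was taken, which gave 13824 of the 38392 gene identifiers in the deposited table. At the edge of that rule, 636 genes reached 10 in exactly 3 libraries, with a median mean count of 11.3, and 697 genes left out reached it in exactly 2, with a median of 8.47.

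All cells came from donors of the strain C57BL/6 TNa TNb RAG1-/- Foxp3GFP, in which a green reporter marks Foxp3, the factor of regulatory T cells. Donor cells sorted as CD4+ with neither CD8α nor the reporter were moved into hosts of the strain C57BL/6 TCRa-/- TCRb-/-, which make no alpha-beta T cells of their own but can still make gamma-delta T cells. The cells were recovered from the small intestine 6 weeks later. Neither the age of the mice nor the number of animals behind a library is given. The series title names a clonal precursor, so the cells of both sites share 1 antigen receptor. IEL DP and LP DP cells differ in the labels only by the layer they were taken from. CD4-only cells of the same layers (IEL SP and LP SP, with neither CD8α nor the reporter, 3 libraries each) serve to ask whether a site difference is shared, and LP CD4+Foxp3+ cells entered only the shared estimate of the spread between libraries. How the cells were released from each layer is not given in the sources used here, so tissue site and handling cannot be told apart.

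CD4+ T cells that settle among gut epithelial cells can gain CD8α and a cytotoxic, innate-like character. CD8α is then present as a homodimer, which binds the thymus leukaemia antigen on enterocytes. Integrin αE paired with β7 binds E-cadherin on the epithelium, and the chemokine receptor CCR9 guides T cells to the small intestine. T cells of the lamina propria lie among dendritic cells and other myeloid cells, which can provide the CD28 and ICOS ligands.

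The libraries were alike in depth and separated by site. Recovered reads ran from 5648774 to 6674631 in IEL DP and from 5850366 to 7041255 in LP DP. Pearson's r of log2 values across genes was 0.929 to 0.945 within a site and 0.886 to 0.907 between sites, and the first principal component, with 41.3% of the variance, put the 3 IEL DP libraries on one side and the 3 LP DP libraries on the other. The mitochondrial share of counts was 2.20% to 2.33% in IEL DP and 2.59% to 2.94% in LP DP, without overlap, and its part in the results was not tested. IEL DP library 1 stood apart on the second component and gave 16.0% of its counts to its 10 highest genes. The T cell markers Cd3e, Cd3d, Cd3g, Cd247, Lck and Lat were at 695 or above in all 6 libraries. B and plasma cell, gamma-delta T cell, innate lymphoid and stromal lists had 0 of 5, 0 of 3, 0 of 3 and 0 of 6 tested members called, and no erythroid gene passed the filter. Of all genes tested 10.8% were called, so lists this short cannot decide whether such cells were present. The 3 gamma-delta T cell genes tested all had changes above 0 (median 1.25). The list's 6 genes in the table summed to a mean of 1653 in IEL DP and 723 in LP DP. With the 6 DP libraries alone in the fit, 2 of the 3 gamma-delta T cell genes were higher in IEL DP. Of 12 myeloid genes tested, Cd74 alone was called, lower in IEL DP at 12.8, 34.8 and 11.2, against 71.1, 142 and 82.9 in LP DP, a call lost with the epithelial sum, described at the end, as a covariate. The myeloid marker Lyz2 was at 1.07, 0 and 0 in IEL DP and at 17.5, 183 and 0 in LP DP. C1qa, C1qb and Csf1r, also under the filter, peaked in LP DP library 2 (32.3, 25.5 and 22.1) and did not exceed 0.83 in IEL DP. Of the 28 genes of the myeloid and mast cell list, 5 were at 0 in all 6 libraries.

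The site difference was broad. Of the 13824 genes, 1487 (10.8%) were called at an adjusted p under 0.05 with limma, 649 of them higher in IEL DP (4.69% of those tested) and 838 lower (6.06%). Counts of called members in gene lists, given throughout, are to be read against these shares. At least 2-fold differences were found for 348 genes called higher and 425 called lower, and at least 4-fold differences for 72 and 159. Among the calls, 643 higher and 835 lower genes had no overlap between the 3 and 3 libraries, against 16.3% of all genes tested in each direction. The median log2 change over all genes was 0.06, so the centre of the distribution lay near 0. Below, per-library values are normalised read counts, in the order of libraries 1, 2 and 3, changes are log2 of IEL DP over LP DP with their standard error, and adjusted p-values are limma's over all 13824 genes. In bulk RNA of a sorted population, fewer cells that carry a transcript and less of it per cell cannot be told apart.

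Receptors of the CD28 family were among the steepest decreases in epithelial CD4+CD8α+ cells. Icos, an inducible costimulatory receptor, had counts of 268, 248 and 242 in IEL DP and 2698, 2722 and 2861 in LP DP. The 3 libraries of each site lay close together, and the change was -3.44 ± 0.12 (adjusted p = 1.32e-09), the smallest p of all named genes. Cd28, the main costimulatory receptor of naive T cells, had 144, 238 and 169 in IEL DP, against 1627, 1340 and 1400 in LP DP (-3.00 ± 0.17, adjusted p = 9.93e-08). Ctla4, which competes with CD28 for the same ligands, moved the same way: it stood at 205, 324 and 274 in IEL DP and at 3581, 3304 and 2854 in LP DP (-3.61 ± 0.28, adjusted p = 1.83e-06). The 3 genes are neighbours on mouse chromosome 1, and no library of one site reached the other for any of them.

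The wider list of CD4 helper identity and costimulation had 16 members tested, of which 7 fell and 0 rose (median change -0.79). Besides Icos and Cd28, these were the chromatin organiser Satb1 (-2.47 ± 0.28), the TNF family ligands Tnfsf11 (RANKL, -2.09 ± 0.30) and Cd40lg (-1.20 ± 0.24), and the TNF receptors Tnfrsf18 (GITR, -1.57 ± 0.21) and Tnfrsf4 (OX40, -2.42 ± 0.42). Tnfrsf4 was a low gene, with 11.8, 6.62 and 18.6 in IEL DP and 32.0, 101 and 84.8 in LP DP. In the regulatory core list 6 of 14 tested members fell and 0 rose (median -0.82). This list shares Ctla4, Tnfrsf18 and Tnfrsf4 with the lists above, and Foxp3 itself was too low to be tested, with counts of 2.14, 11.6 and 22.3 in IEL DP and 0, 1.70 and 0.94 in LP DP. Among 14 inhibitory receptors, 4 fell and 1 rose: Ctla4, Cd274 (PD-L1, -1.46 ± 0.21), Tigit and Lilrb4 (-2.20 ± 0.16) fell, and 0 to 3 members rose across settings. The calls of Cd40lg and Tigit were lost with the summed epithelial transcripts of each library as a covariate (adjusted p = 0.135 and 0.163). Reads of Lilrb4 may be shared with the near-identical gene Gp49a, which fell alike (-2.21 ± 0.11), so the values of each are uncertain.

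**Figure D1:**
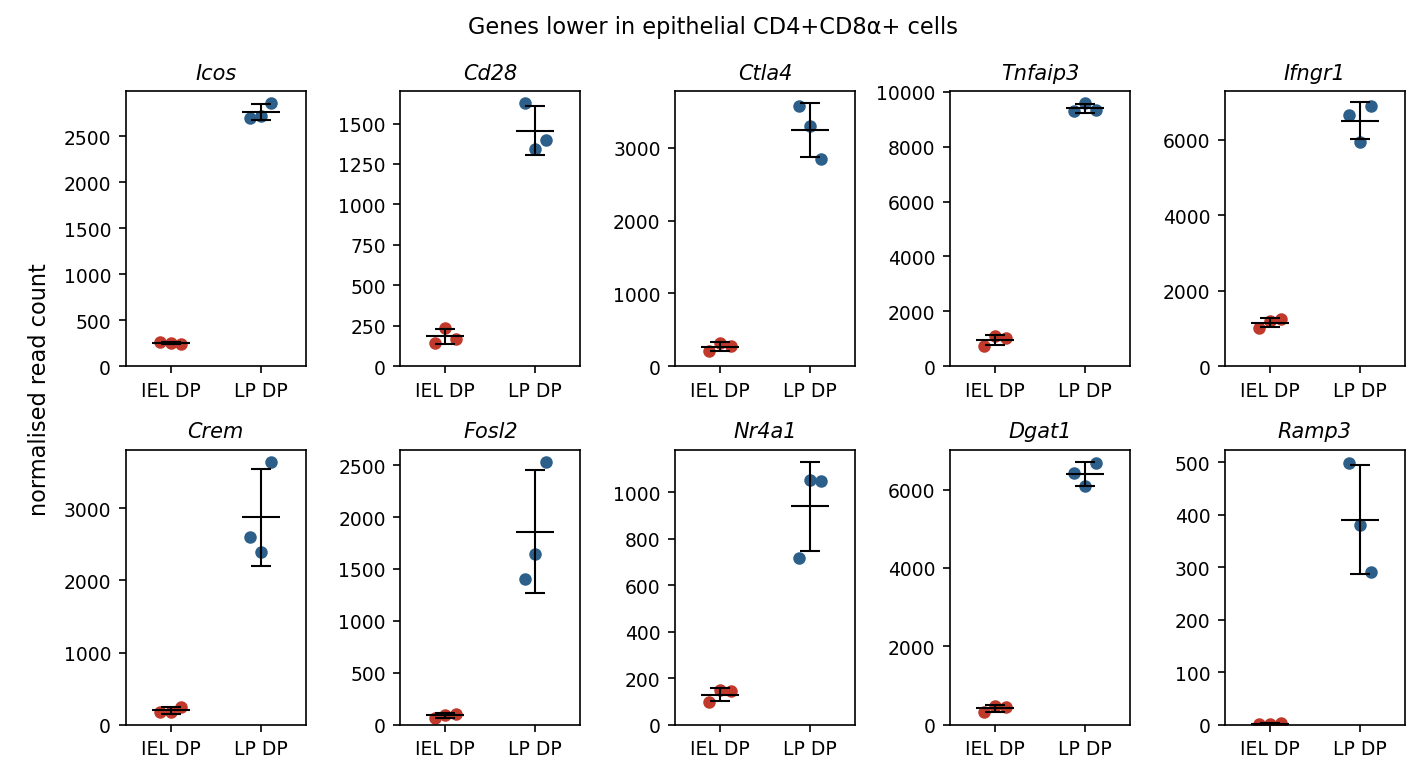
Normalised read counts (y axis, from 0) of 10 genes that were lower in IEL DP, with 1 point per library, IEL DP in red on the left and LP DP in blue on the right; the horizontal bar is the mean and the whiskers its SD (n = 3 each). In all 10 panels the 3 epithelial libraries lie below the 3 lamina propria libraries, by the widest margin relative to their level for Ramp3 (1.07, 1.65 and 2.79 against 499, 381 and 291).

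Single genes linked to cyclic AMP fell as steeply, among them Ramp3, which had the largest change of all genes named here. Ramp3, a membrane protein that partners with calcitonin-type receptors for neuropeptides and adrenomedullin, had counts of 1.07, 1.65 and 2.79 in IEL DP and 499, 381 and 291 in LP DP. Those IEL DP values stand for 1, 2 and 3 reads, and the ratio of LP DP over IEL DP was 208 with a 95% exact interval of 95.1 to 567, which covers counting error only. Crem, a cyclic AMP responsive factor that also acts as a repressor, had 171, 174 and 249 in IEL DP, against 2596, 2390 and 3639 in LP DP (-3.85 ± 0.20, adjusted p = 5.05e-08). The salt-inducible kinase Sik1 had 16.0, 40.5 and 16.7 in IEL DP and 325, 545 and 428 in LP DP (-4.19 ± 0.30, adjusted p = 9.39e-07). The clock gene Per1, which also responds to cyclic AMP and glucocorticoids and was picked here after its values were seen, had 173, 127 and 141 in IEL DP and 1138, 1155 and 1330 in LP DP (-3.04 ± 0.16). No fixed list of cyclic AMP genes was counted, so these are single genes and not a tested group.

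Immediate early genes, the first genes transcribed after a stimulus and also after enzymatic release of cells from tissue, fell in IEL DP in 16 of 25 cases and rose in 0 (median change -1.04), where 6.06% of all genes fell. Fosl2, a Fos family member, had 66.2, 96.0 and 106 in IEL DP, against 1401, 1645 and 2528 in LP DP (-4.34 ± 0.27, adjusted p = 2.69e-07). The orphan nuclear receptor Nr4a1, which follows antigen receptor signals, had 97.2, 147 and 143 in IEL DP and 717, 1051 and 1049 in LP DP (-2.85 ± 0.30, adjusted p = 3.93e-05), and its relative Nr4a3 changed by -3.31 ± 0.33. The changes were smaller for the abundant members Fos (-1.21 ± 0.16) and Klf6 (-1.78 ± 0.18). Dusp1 and Dusp5, phosphatases that switch off MAP kinases, fell by 2.34 ± 0.23 and 3.21 ± 0.22 on the log2 scale. Egr1, another classical member, did not pass: it overlapped between sites at 282, 413 and 225 in IEL DP and 266, 437 and 435 in LP DP (adjusted p = 0.497). Heat shock genes, which also respond to stress during cell isolation, had 1 of 13 tested members called, Hspa5, a chaperone of the endoplasmic reticulum (-0.86 ± 0.12), and Hspa1a did not pass (-0.38 ± 0.32). The heat shock count lies near the share of all genes called (10.8%). With the summed epithelial transcripts of each library as a covariate, 9 of the 25 immediate early genes fell.

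Of 18 tested genes that belong to NF-κB feedback, 11 fell and 2 rose (median change -1.24), where 6.06% of all genes fell and 4.69% rose. Tnfaip3, the ubiquitin-editing inhibitor A20, had 742, 1083 and 1027 in IEL DP and 9293, 9591 and 9338 in LP DP (-3.33 ± 0.22, adjusted p = 4.37e-07). Nfkbia, which holds NF-κB in the cytoplasm, had 642, 915 and 628 in IEL DP, against 2668, 5701 and 3796 in LP DP (-2.43 ± 0.23, adjusted p = 1.59e-05). The subunit genes Rel (-2.43 ± 0.21) and Relb (-1.67 ± 0.23) and the survival gene Birc3 (-1.70 ± 0.24) fell beside them. The exceptions were Cyld, a deubiquitinase that limits the pathway, at 1496, 1242 and 1619 in IEL DP and 943, 806 and 958 in LP DP (0.68 ± 0.13, adjusted p = 0.00427), and Nfkbid, a nuclear inhibitor (1.30 ± 0.31, adjusted p = 0.0163). With the epithelial sum as a covariate 7 of the 18 fell and neither exception passed, and neither passed with all 18 libraries in the fit. The call of Nfkbid was also lost without IEL DP library 1 or without LP DP library 1 (adjusted p up to 0.0589).

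Promoters of 3 of these genes are shown, 1 per gene, picked because each holds 1 exact match to a binding motif of the factors just described. They run from 250 bases before to 50 bases after the start site, from RefSeq on GRCm38.p6, 5′ to 3′ on the strand of the gene, with the match in capitals. Maff (a small Maf factor that pairs with Fos family proteins) and Dusp1 hold the cyclic AMP response element TGACGTCA, and Nfkbia holds the κB motif. They lie at chr15:79347270-79347569 on the plus strand, chr17:26508423-26508722 on the minus strand and chr12:55492598-55492897 on the minus strand, in that order.
Maff: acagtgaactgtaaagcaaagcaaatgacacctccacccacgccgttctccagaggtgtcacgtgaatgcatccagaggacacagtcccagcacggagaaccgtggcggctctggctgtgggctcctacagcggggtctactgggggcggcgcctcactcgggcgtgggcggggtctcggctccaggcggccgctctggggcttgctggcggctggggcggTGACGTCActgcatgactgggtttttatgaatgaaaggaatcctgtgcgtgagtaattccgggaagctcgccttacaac
Dusp1: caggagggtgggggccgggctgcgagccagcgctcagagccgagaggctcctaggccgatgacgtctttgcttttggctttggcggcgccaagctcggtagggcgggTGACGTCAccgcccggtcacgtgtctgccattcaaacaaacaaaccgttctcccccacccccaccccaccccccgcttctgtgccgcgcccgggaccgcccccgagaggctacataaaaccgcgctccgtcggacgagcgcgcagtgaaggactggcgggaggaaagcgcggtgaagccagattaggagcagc
Nfkbia: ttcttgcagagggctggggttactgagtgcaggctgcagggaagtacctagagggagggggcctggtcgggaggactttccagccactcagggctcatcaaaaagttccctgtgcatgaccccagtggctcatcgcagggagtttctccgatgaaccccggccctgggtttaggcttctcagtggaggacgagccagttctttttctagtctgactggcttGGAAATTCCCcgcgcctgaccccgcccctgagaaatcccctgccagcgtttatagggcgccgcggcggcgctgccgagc

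Maff had 2.14, 4.96 and 0 in IEL DP and 62.9, 117 and 97.9 in LP DP, a ratio of LP DP over IEL DP of 38.0 (95% exact interval 19.0 to 88.8, counting error only). A gene was counted as holding a motif where any of its RefSeq promoters held it on either strand. Maff has a second promoter, not shown, with 1 κB match and no cyclic AMP response element. The element TGACGTCA, which reads the same on both strands, was present for 38 of the 465 called-lower genes that could be matched by symbol (8.17%), for 18 of 498 called-higher genes (3.61%), for 276 of 7569 genes not called (3.65%) and in 1.79% of all 32851 promoters. Besides Maff and Dusp1, the lower genes with it included the elongation factor Ell2 (-2.52 ± 0.31), the antiproliferative gene Btg2 (-0.99 ± 0.20, a call lost with quantile normalisation and with the epithelial covariate) and several ribosomal protein genes. The κB motif was present for 17.6% of lower, 9.64% of higher and 11.8% of uncalled genes, and in 8.46% of all promoters. The AP-1 motif TGACTCA, which cannot lie within either of the others, was present for 4.95% of lower, 4.02% of higher and 4.48% of uncalled genes, and in 5.20% of all promoters. Shares of all promoters count single promoters, also of genes not tested, so they are not like for like with the shares of genes. All these shares are descriptions of letters in a window and say nothing of binding. Of the 44 named genes searched, 32 had a promoter and 12 held a motif in it. Among the 12 were Wdr5b, with the cyclic AMP response element, and Tor4a, with the AP-1 motif, both called higher.

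**Figure D2:**
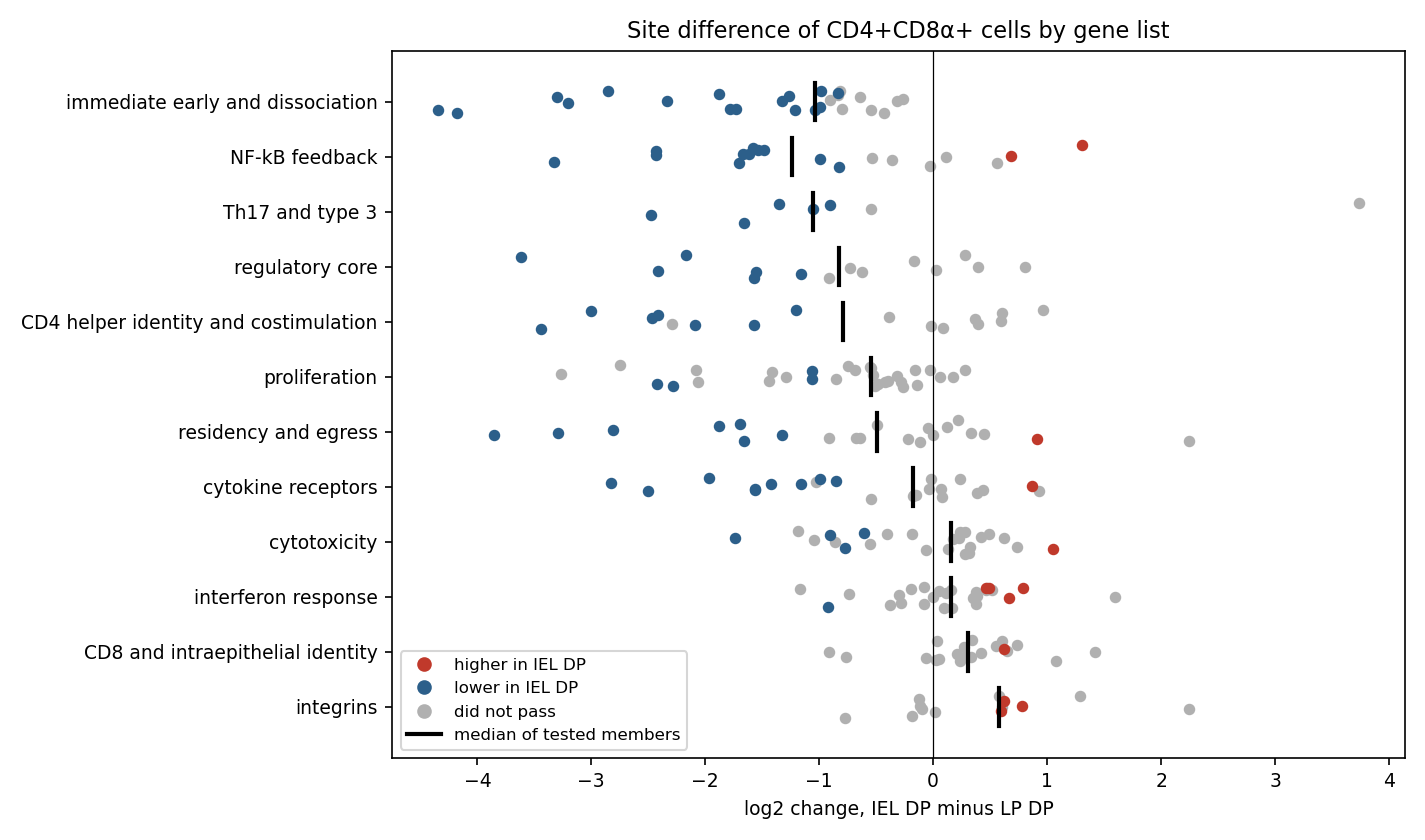
Log2 change of IEL DP over LP DP (x axis) for every tested member of 12 gene lists (rows), with 1 point per gene, red where called higher, blue where called lower and grey where not called; the black bar is the list's median. The immediate early and NF-κB rows lie left of 0 at their medians (-1.04 and -1.24), and the integrin row lies right of it (0.58).

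Of 23 cytokine receptor genes tested, 9 fell, 1 rose and 13 did not pass (median -0.18), where 6.06% of all genes fell and 4.69% rose. Ifngr1, the ligand-binding chain of the interferon-γ receptor, had 1013, 1191 and 1255 in IEL DP, against 6664, 5951 and 6891 in LP DP (-2.50 ± 0.12, adjusted p = 3.42e-08). Il4ra, shared by the receptors for IL-4 and IL-13, had 227, 113 and 186 in IEL DP and 1236, 1054 and 1334 in LP DP (-2.83 ± 0.24, adjusted p = 6.88e-06). The receptors for IL-21 (Il21r, -1.56 ± 0.14) and IL-18 (Il18r1, -1.97 ± 0.28) and the type I interferon receptor chain Ifnar1 (-0.99 ± 0.19) also fell. With the epithelial sum as a covariate 5 of the 23 fell, and the calls of Il2rb, Il2rg and Il2ra, which make up the IL-2 receptor, were among those lost there; that of Il2rb was also lost with all 18 libraries, that of Il2rg with the 6 DP libraries alone, and that of Il2ra without IEL DP library 3 or LP DP library 2 (adjusted p up to 0.0746). Cish, a feedback inhibitor that STAT5 signals induce, was higher instead, at 1023, 1283 and 1855 in IEL DP and 400, 571 and 480 in LP DP (1.49 ± 0.24, adjusted p = 0.00129), and it too missed the threshold with that covariate. Socs3, a feedback inhibitor of STAT3 signals, had 4.27, 46.3 and 31.6 in IEL DP and 230, 345 and 202 in LP DP (-3.65 ± 0.62, adjusted p = 0.00207). Its call was lost with the covariate and with all 18 libraries.

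Of 7 Th17 and type 3 genes tested, 5 fell and 0 rose (median -1.05), where 6.06% of all genes fell. Rora, which works with RORγt, had 1628, 1945 and 1625 in IEL DP and 5018, 4265 and 3989 in LP DP (-1.35 ± 0.15, adjusted p = 8.32e-05). Maf fell by 0.91 ± 0.16 and Ahr, the aryl hydrocarbon receptor that senses dietary ligands, by 1.66 ± 0.30 on the log2 scale, while the calls of Batf and Irf4 in this list did not hold with the epithelial covariate. In the Th1 list 4 of 16 fell, among them Ifngr1 and Il18r1, and Tnf alone rose (1.75 ± 0.50). Ifng itself did not pass, at 774, 728 and 499 in IEL DP and 834, 1254 and 852 in LP DP (-0.55 ± 0.45, adjusted p = 0.469). The call of Tnf was lost without IEL DP library 1 or 2 and without LP DP library 1 or 3 (adjusted p up to 0.137). Genes of quiescent and stem-like T cells fell in 4 of 14 cases and rose in 0 (median -0.32), with Foxo1 at 83.3, 140 and 153 in IEL DP and 648, 471 and 545 in LP DP (-2.17 ± 0.24, adjusted p = 7.70e-05).

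In the TGF-β pathway, whose signal induces both CD8α and integrin αE in gut T cells, 4 of 18 tested genes fell and 2 rose, Itgae and Tgfbr1 (median -0.38). Of the 4, Skil, Smad7 and Tgif1 are known as inhibitors of the pathway. The corepressor Skil had 4756, 4310 and 4116 in IEL DP and 11320, 12706 and 12693 in LP DP (-1.48 ± 0.11, adjusted p = 1.60e-06). Smad7, an inhibitory Smad that TGF-β induces, had 643, 683 and 791 in IEL DP, against 1472, 1698 and 1525 in LP DP (-1.15 ± 0.12, adjusted p = 3.09e-05). The corepressor Tgif1 changed by -2.88 ± 0.33, and Furin, which cleaves the TGF-β precursor, by -1.31 ± 0.22. The receptor Tgfbr1 was higher, at 225, 220 and 195 in IEL DP and 74.2, 112 and 115 in LP DP (1.11 ± 0.25, adjusted p = 0.0123). Its call rested on LP DP library 1, without which its adjusted p was 0.0509, and Furin and Tgfbr1 both missed the threshold with the epithelial covariate.

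Both chains of the integrin that binds E-cadherin were higher in IEL DP, by less than 2-fold. Itgae, the αE chain (CD103), had 5167, 6776 and 6267 in IEL DP and 3839, 3902 and 4048 in LP DP (0.62 ± 0.12, adjusted p = 0.00452). Itgb7, its partner chain, had 4372, 5287 and 4825 in IEL DP, against 2929, 3394 and 3225 in LP DP (0.60 ± 0.12, adjusted p = 0.00652). Both chains moved by nearly the same factor, and both calls held in every setting tried. Of 13 integrin genes tested, 3 rose and 0 fell (median 0.58), where 4.69% of all genes rose. The third, Itgb2, the β2 chain of LFA-1, changed by 0.78 ± 0.20, and its call was lost without IEL DP library 1 or 3 and without LP DP library 2 or 3 (adjusted p up to 0.118). Itga1, the α1 chain that binds collagen, did not pass, at 1319, 737 and 928 in IEL DP and 665, 617 and 624 in LP DP (0.60 ± 0.50, adjusted p = 0.482).

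Chemoattractant receptors split by gene: of 16 tested, 2 rose and 4 fell. Ccr9 had 1380, 1899 and 1995 in IEL DP and 922, 960 and 983 in LP DP (0.86 ± 0.19, adjusted p = 0.0098), and missed the threshold with all 18 libraries in the fit. Cxcr6, a receptor of tissue-resident T cells, had 2431, 3097 and 2578 in IEL DP and 1425, 1272 and 1604 in LP DP (0.91 ± 0.18, adjusted p = 0.00487). Gpr183, which senses oxysterols and draws cells to lymphoid follicles, had 190, 85.2 and 107 in IEL DP, against 573, 623 and 411 in LP DP (-2.12 ± 0.27, adjusted p = 0.000199). Ccrl2 (-2.46 ± 0.35) and Ptger4 (-0.88 ± 0.16) also fell, and Ptger4 lost its call both with all 18 libraries and with the epithelial covariate.

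Of 21 genes of tissue residency and egress tested, 1 rose in the epithelium (Cxcr6) and 7 fell (median -0.50). Cd69, which keeps T cells in tissue by removing the egress receptor S1PR1 and is itself induced by activation, had 1033, 2057 and 1314 in IEL DP and 5275, 5701 and 4604 in LP DP (-1.88 ± 0.25, adjusted p = 0.000361). Rgs1, which damps chemokine receptor signals, had 6940, 8528 and 6550 in IEL DP, against 19736, 16005 and 19331 in LP DP (-1.33 ± 0.14, adjusted p = 3.30e-05), and Bhlhe40 changed by -3.29 ± 0.25. Crem and Ahr, described above, belong to the same list. The egress genes themselves were low at both sites. S1pr1 had 2.14, 36.4 and 16.7 in IEL DP and 8.25, 45.9 and 6.59 in LP DP, which overlapped (adjusted p = 0.899). Klf2, the factor that drives S1pr1, had 13.9, 24.8 and 0.93 in IEL DP and 38.1, 143 and 44.3 in LP DP (-2.81 ± 0.78, adjusted p = 0.0343), and its call was lost without IEL DP library 3, LP DP library 2 or LP DP library 3 (adjusted p up to 0.132) and with the 6 DP libraries alone.

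The coreceptor genes that define the population did not pass the test between sites. Cd4 overlapped at 671, 820 and 1150 in IEL DP and 761, 683 and 1017 in LP DP (0.09 ± 0.23, adjusted p = 0.847). Cd8a was above in all 3 epithelial libraries, at 4879, 6340 and 6444 in IEL DP and 3744, 3411 and 3364 in LP DP (0.74 ± 0.58, adjusted p = 0.455). With the 6 DP libraries alone in the fit, its adjusted p was 0.0128. In the CD4-only libraries, which share the estimate of the spread in the larger fit, Cd8a averaged 48.1 in IEL SP and 15.2 in LP SP. Cd8b1, the β chain, was low at both sites, at 57.7, 57.1 and 64.2 in IEL DP and 56.7, 39.1 and 51.8 in LP DP (adjusted p = 0.472). Runx3, the factor that favours CD8 over CD4 fate, had 1697, 1244 and 1516 in IEL DP and 1313, 1049 and 1169 in LP DP (0.33 ± 0.17, adjusted p = 0.25). Zbtb7b, which encodes the opposing factor ThPOK, was under the filter, at 1.07, 0.83 and 1.86 in IEL DP and 2.06, 11.9 and 33.9 in LP DP.

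**Figure D3:**
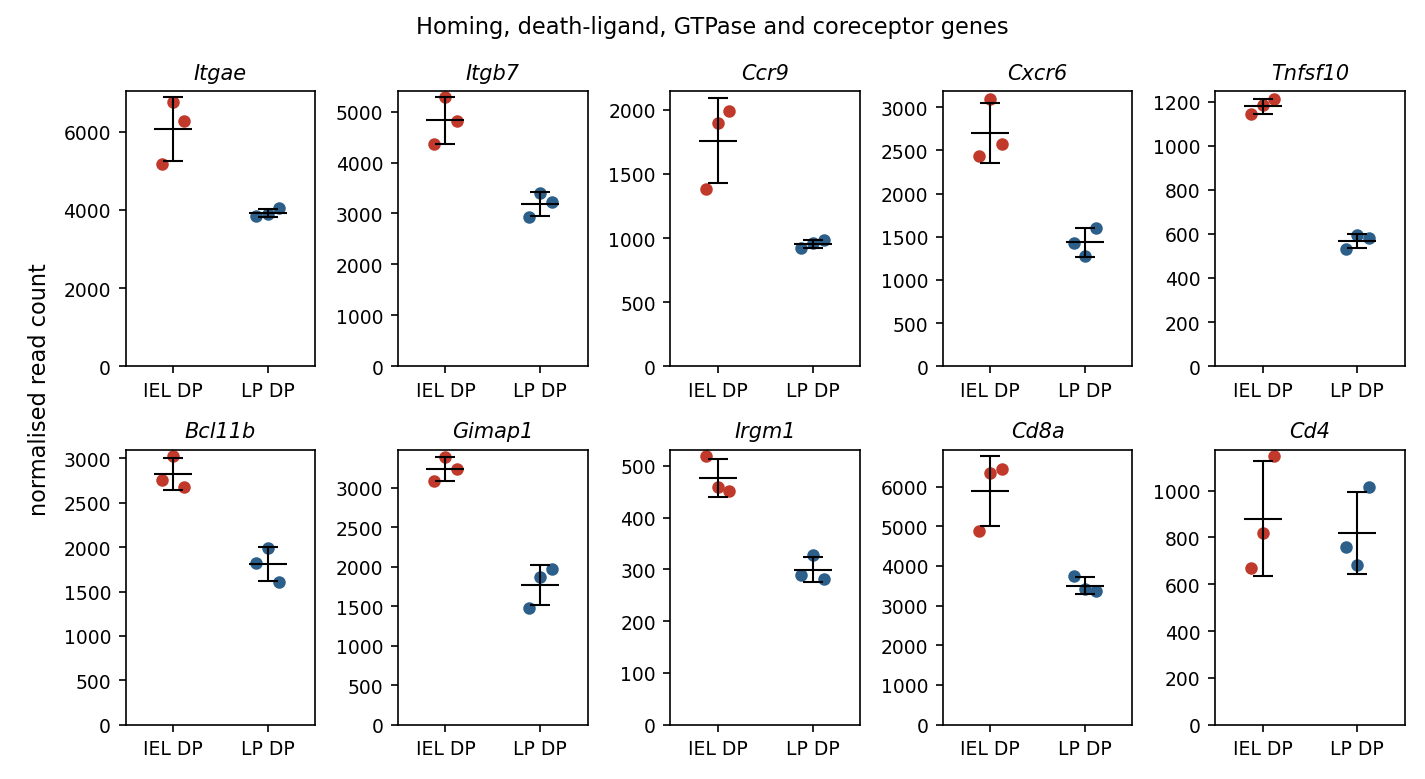
Normalised read counts (y axis, from 0) of 8 genes called higher in IEL DP and of Cd8a and Cd4, with 1 point per library, IEL DP in red on the left and LP DP in blue on the right; bars and whiskers are mean and SD (n = 3 each). The sites do not overlap in any panel but that of Cd4 (671 to 1150 in IEL DP, 683 to 1017 in LP DP).

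Of 24 cytotoxic genes tested, 1 rose and 4 fell (median 0.15), where 4.69% of all genes rose and 6.06% fell. Tnfsf10, the death ligand TRAIL, was the one that rose, at 1142, 1183 and 1212 in IEL DP and 532, 593 and 581 in LP DP (1.05 ± 0.12, adjusted p = 5.62e-05). Granzymes were among the most abundant transcripts at both sites and did not pass. Gzma had 60652, 57028 and 50516 in IEL DP and 41207, 30405 and 30074 in LP DP (0.74 ± 0.29, adjusted p = 0.121), while Gzmb overlapped at 10921, 14740 and 14328 in IEL DP and 11982, 8842 and 12161 in LP DP (adjusted p = 0.661). Gzma passed with the 6 DP libraries alone (adjusted p = 0.0176). Serpinb9, an inhibitor that shields cells from granzyme B, fell to 615, 496 and 454 in IEL DP, against 1700, 1650 and 1838 in LP DP (-1.74 ± 0.17, adjusted p = 2.58e-05), and the granule proteoglycan Srgn fell by 0.61 ± 0.10 on the log2 scale. The call of Srgn was lost with quantile normalisation and with the epithelial covariate (adjusted p up to 0.138). With the 6 DP libraries alone, 3 cytotoxic genes rose and 6 fell, and with the covariate 1 rose and 1 fell. Of 20 genes of CD8 and intraepithelial identity, Itgae alone passed (median 0.31), though 1 to 5 passed across settings, all higher in IEL DP. The 5 were found with the 6 DP libraries alone, where Cd8a, Cd160 (adjusted p = 0.0167) and Cd244 (adjusted p = 0.00517) were called.

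In the T cell identity list 3 of 17 genes rose and 1 fell (median 0.17), by less than 2-fold each, and 1 to 7 rose across settings. Bcl11b, a factor that maintains the T lineage, had 2759, 3029 and 2680 in IEL DP and 1819, 1995 and 1608 in LP DP (0.65 ± 0.13, adjusted p = 0.00541). Cd3g, a signalling chain of the receptor complex, changed by 0.44 ± 0.10, and the constant region Trbc2 by 0.34 ± 0.08. The call of Cd3g was lost with the epithelial covariate, and that of Trbc2 with the covariate and without IEL DP library 1 or 3 or LP DP library 2 or 3 (adjusted p up to 0.0723).

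Many members of 2 families of small immune GTPases rose in IEL DP. The families were picked after their values were seen, and each lies in gene clusters whose members can share reads. Of 8 GIMAP genes, which regulate lymphocyte survival, 5 rose and 0 fell (median 0.63), and 3 rose with all 18 libraries, with the epithelial covariate, and without IEL DP library 1 or 3 or LP DP library 2 or 3. Gimap1 had 3084, 3386 and 3233 in IEL DP and 1481, 1865 and 1964 in LP DP (0.88 ± 0.10, adjusted p = 0.000102), and Gimap7 and Gimap8 changed by 0.82 ± 0.13 and 0.73 ± 0.10. Gimap6, the exception, was at 6454, 6236 and 6749 in IEL DP and 8514, 7215 and 7195 in LP DP and did not pass (-0.23 ± 0.13). Of 7 immunity-related GTPases, which interferons induce against vacuolar microbes, 4 rose and 0 fell (median 0.67). The other 3 did not pass. Ifi47 had 2795, 3088 and 3297 in IEL DP, against 1260, 1244 and 1123 in LP DP (1.34 ± 0.23, adjusted p = 0.00217), and Tgtp1, near-identical to Tgtp2, changed by 1.22 ± 0.20. The interferon response list as a whole was mixed: of 27 tested, 4 rose and 1 fell (median 0.15), where 4.69% of all genes rose and 6.06% fell. Parp14 was higher (0.79 ± 0.17) and Isg15 lower (-0.92 ± 0.18), and both calls were lost with the epithelial covariate. In this list 1 rose without IEL DP library 1 or LP DP library 1, and 2 without IEL DP library 2 or 3 or LP DP library 3. Irgm1, also in that list, changed by 0.67 ± 0.18 and lost its call without any 1 of the IEL DP libraries and without LP DP library 1 or 3 (adjusted p up to 0.0898).

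Lipid genes held 1 of the steepest changes. Dgat1, which makes the final step of triglyceride synthesis, had 321, 476 and 456 in IEL DP and 6426, 6087 and 6690 in LP DP (-3.96 ± 0.17, adjusted p = 8.66e-09). It was the only one of 17 fatty acid genes that fell. Of the 2 that rose, one was the enterocyte gene Fabp2, described with the carry-over below, and the other Cpt2, a carnitine transferase of mitochondria, at 42.7, 168 and 53.0 in IEL DP and 1.03, 1.70 and 19.8 in LP DP (3.92 ± 0.95, adjusted p = 0.0178). The call of Cpt2 was lost without IEL DP library 2, LP DP library 1 or LP DP library 2 (adjusted p up to 0.0756). Of 19 cholesterol synthesis genes 3 rose and 1 fell (median 0.31), and the calls of Fdft1, Lss and Insig1 were each lost in 4 of the 6 fits with 1 library left out (Fdft1 without IEL DP 1, IEL DP 3, LP DP 2 or LP DP 3; Lss without IEL DP 1, IEL DP 2, LP DP 1 or LP DP 3; Insig1 without IEL DP 2, IEL DP 3, LP DP 1 or LP DP 3). Adjusted p reached 0.0799 for Fdft1, 0.107 for Lss and 0.168 for Insig1. Glycolysis and hypoxia genes had 2 of 21 called, both lower, about the share called among all genes (10.8%). Hk2, which starts glycolysis, stood at 78.0, 86.0 and 69.8 in IEL DP and 391, 613 and 367 in LP DP (-2.50 ± 0.39, adjusted p = 0.00115), while Hif1a changed by -1.03 and lost its call without any 1 of the IEL DP libraries and without LP DP library 1 or 2 (adjusted p up to 0.131).

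Of 30 proliferation genes tested, 4 fell and 0 rose (median -0.55), while 7 fell with the replicate number as a block and 1 with the epithelial covariate. Among all genes 6.06% fell. Cenpa, the centromeric histone, had 180, 113 and 84.6 in IEL DP and 448, 662 and 678 in LP DP (-2.28 ± 0.23, adjusted p = 2.58e-05). In the survival and death list 5 of 24 fell and 1 rose (median 0.25). Casp4, an inflammatory caspase, had 329, 305 and 254 in IEL DP, against 1044, 1108 and 934 in LP DP (-1.80 ± 0.11, adjusted p = 1.65e-07), and the NF-κB target Bcl2a1b (-1.75 ± 0.16), whose paralogs are near-identical and share reads with it, and the BH3-only gene Pmaip1 (-1.16 ± 0.19) fell too. The one that rose was Pycard, the adaptor of inflammasomes (0.62), and 0 to 3 rose across settings.

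Other genes with large decreases belong to no list. Ifrd1, a transcriptional coregulator, had 331, 262 and 447 in IEL DP and 4871, 6785 and 6057 in LP DP (-4.11 ± 0.18, adjusted p = 8.95e-09). Vps37b, a subunit of the ESCRT-I sorting complex, had 110, 54.6 and 84.6 in IEL DP, against 2295, 2311 and 3259 in LP DP (-5.00 ± 0.29, adjusted p = 1.18e-07). Taf4b, a TFIID subunit, had 2.14, 2.48 and 0 in IEL DP and 135, 90.0 and 145 in LP DP, a ratio of LP DP over IEL DP of 78.5 (95% exact interval 33.3 to 243, counting error only). The chemokine Cxcl10 was uneven in the epithelium, at 25.6, 127 and 2.79 in IEL DP and 540, 1061 and 567 in LP DP (-4.88 ± 0.96, adjusted p = 0.00561). The 15 largest decreases by the naming rule ran from -3.65 to -7.12, all 15 were called lower in CD4-only cells as well, and all 15 kept their call in every fit with 1 DP library left out. Of them 11 were called in every setting: Cxcl10 (adjusted p = 0.204) and Slc24a1 (0.117) were lost with the epithelial covariate, Nfil3 (0.056) with all 18 libraries, and Socs3 with both. Ramp3, Taf4b, Maff and Slc24a1 reached a count of 10 in the LP DP libraries alone. They entered the test only through the site where they were high, so their direction was largely set by the filter. The fits with 1 DP library left out kept the same genes and are no separate support for them.

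The largest increases were of another kind. The 15 genes with the largest change upward, from 2.38 to 4.0, averaged only 52.0 to 252 in IEL DP and 3.98 to 44.5 in LP DP, and 1 of them was called higher in CD4-only cells. Of these 15, 4 kept their call in every fit with 1 DP library left out, namely Mettl22, Metrnl, Nipal1 and Yae1d1, and those 4 missed the threshold with the epithelial covariate, Metrnl also with the 6 DP libraries alone. The rest, Cpt2, Lig4, Lyl1, Cited4, Tor4a, Bcdin3d, Wdr5b, Tnfaip8l2, Gda, Gzf1 and Fastkd3, had adjusted p up to 0.173 when 1 library was left out. Mettl22 had 78.0, 21.5 and 108 in IEL DP and 7.22, 0 and 4.71 in LP DP. It passed the filter through the IEL DP libraries alone, so its direction was largely set by that rule. Metrnl, a secreted protein, had 113, 162 and 169 in IEL DP and 3.09, 21.2 and 48.0 in LP DP.

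Some increases with small p-values, picked by hand after their values were seen, were smaller changes, in genes that were more abundant in most cases. They are not the full set with the smallest p-values. Nudt7 (2.33, adjusted p = 0.000153) and Fgfr1op2 (0.93, adjusted p = 0.000148), for example, had smaller ones than Fgl2 and Gnpda1. Ap3m1, a subunit of the AP-3 complex that sorts proteins to lysosomes and granules, had 355, 245 and 264 in IEL DP and 58.8, 66.3 and 43.3 in LP DP (2.34 ± 0.21, adjusted p = 9.57e-06). Dtymk, the thymidylate kinase, had 1246, 1084 and 1292 in IEL DP, against 524, 498 and 458 in LP DP (1.29 ± 0.14, adjusted p = 4.87e-05). Fgl2, a secreted immunoregulatory fibrinogen-like protein, had 1432, 1350 and 1793 in IEL DP and 391, 593 and 589 in LP DP (1.55 ± 0.21, adjusted p = 0.000415). Gnpda1, which feeds glucosamine into glycolysis, had 208, 163 and 215 in IEL DP and 68.0, 46.7 and 65.0 in LP DP (1.70 ± 0.22, adjusted p = 0.00025). Acat2 changed by 1.21 ± 0.15, though its reads may be shared with its near-copy Acat3, and Ap3m1 also has a pseudogene copy.

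CD4-only cells also differed between the same layers. In them 1503 genes (10.9%) were called, 663 higher in IEL SP (4.80%) and 840 lower (6.08%). Of the genes called, 777 were shared by both populations, 775 of them with the same sign, which is 52.1% of the calls of CD4+CD8α+ cells and 51.6% of those of CD4-only cells. They were more often lower than higher, 547 against 228. Of the 1487 genes called in CD4+CD8α+ cells, 1430 had the same sign in CD4-only cells. Pearson's r between both site differences was 0.59 across the 13824 genes, which are not independent replicates, and the populations were sorted from the same layers. Icos changed by -3.44 in CD4+CD8α+ cells and by -3.00 in CD4-only cells, and Dgat1 by -3.96 and -4.19.

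**Figure D4:**
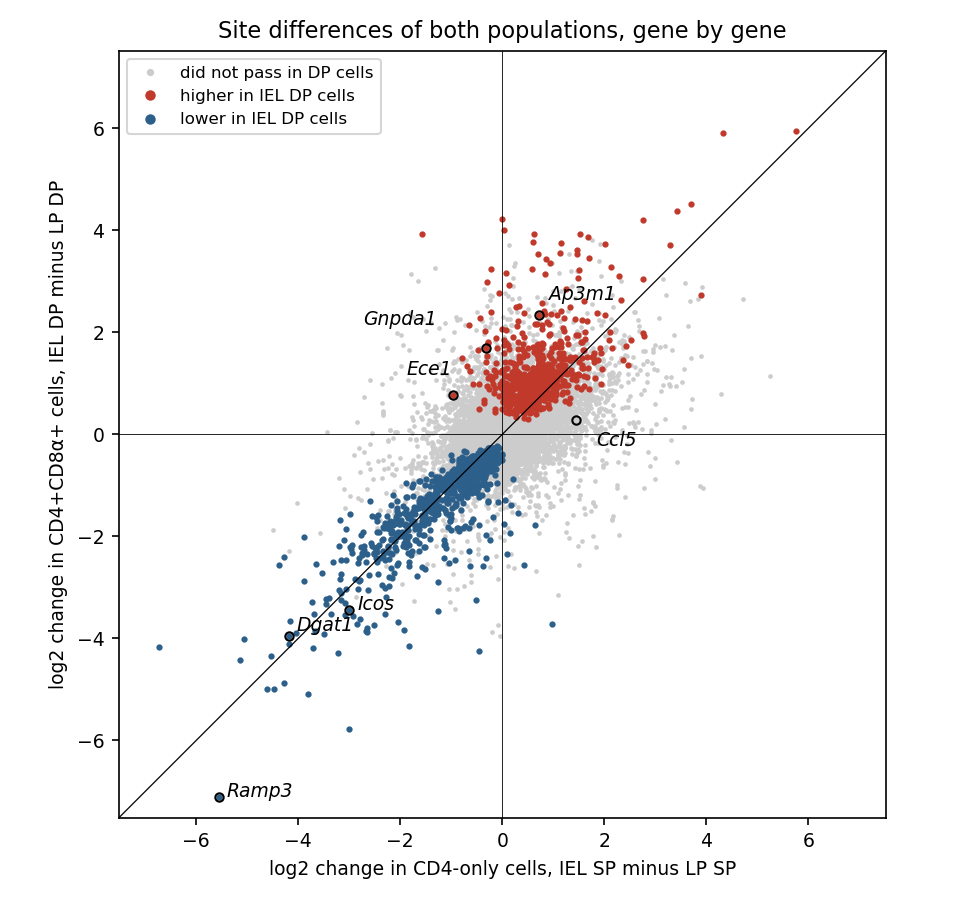
Log2 change between layers in CD4+CD8α+ cells (IEL DP minus LP DP, y axis) against that in CD4-only cells (IEL SP minus LP SP, x axis), with 1 point per gene and the diagonal as a line; red and blue points were called higher and lower in CD4+CD8α+ cells, and circled genes are named. Most called genes lie to the lower left or upper right of the origin, and Ramp3 lies lowest at -7.12.

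No gene passed the test of the difference between both site differences. With limma 0 of 13824 genes (0%) had an adjusted p under 0.05 for that interaction, and 875 had an unadjusted p under 0.05. edgeR on the recovered reads also called 0, DESeq2 called 32. In simulated data with known changes in the more abundant genes, the limma test recovered 14% of 2-fold and 69% of 4-fold interactions. A count of 0 therefore does not show that the site difference is the same in both populations. The smallest adjusted p, 0.114, belonged to Ccl5 and Gnpda1. Ccl5, a chemokine of cytotoxic cells, had 43561, 38066 and 37338 in IEL DP and 37570, 28274 and 32654 in LP DP, whereas its means in CD4-only cells were 21960 in IEL SP and 8178 in LP SP, so its change was 0.28 ± 0.12 and 1.44 (interaction -1.16 ± 0.18). With the replicate number as a block, Ccl5 alone was called (adjusted p = 0.0361), though the data do not settle whether that number pairs the libraries. The means of Gnpda1 were 195 in IEL DP, 59.9 in LP DP, 150 in IEL SP and 193 in LP SP (interaction 2.02 ± 0.31). Ece1 and Frmd4b were called in both populations with opposite signs. Ece1, an endothelin-converting protease, changed by 0.77 in CD4+CD8α+ cells and by -0.97 in CD4-only cells (interaction adjusted p = 0.263), and Frmd4b by 0.49 and -0.47 (0.308). Neither call in CD4+CD8α+ cells was firm: that of Ece1 was lost without IEL DP library 2 or 3 or LP DP library 2 or 3 (adjusted p up to 0.148), that of Frmd4b without IEL DP library 1 or 3 or LP DP library 1 or 3 (adjusted p up to 0.11), and both with the 6 DP libraries alone (0.119 and 0.0723).

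Epithelial transcripts were set apart from all of the above. The 58 genes of the epithelial list, markers of enterocytes and their secretory neighbours, summed to 2509, 602 and 1988 normalised counts in IEL DP and to 402, 398 and 560 in LP DP. That was 0.0416%, 0.0109% and 0.0359% of the total in IEL DP and 0.00667%, 0.00666% and 0.00905% in LP DP. The groups did not overlap, IEL DP library 2 lay close to the LP DP libraries, and the ratio of the means was 3.75. Both the closeness and the ratio depend on Cdh1, whose mean was 294 in IEL DP and 293 in LP DP. This gene held much of the mean LP DP sum of 454, so the other members together differed by more. The exact two-sided permutation test gave p = 0.1, the smallest that 3 against 3 libraries allow. For the 4 defining markers Epcam, Krt8, Vil1 and Fabp1 together the ratio was 7.25. Means were higher in IEL DP for 37 of the 58 genes and higher in LP DP for 10, and 11 were at 0 in all 6 libraries.

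Only 10 of the 58 genes passed the filter, and 6 of those rose and 0 fell. Without IEL DP library 1 only 2 rose, and without IEL DP library 2 or 3 or LP DP library 1 or 2 only 3. Of the 6, Fabp2, Reg3b, Krt8, Krt20 and Vil1 reached a count of 10 in the IEL DP libraries alone. They entered the test only through the site where they were high, so their direction was largely set by the filter. Fabp2, the intestinal fatty acid binding protein, had 28.9, 57.9 and 509 in IEL DP and 3.09, 0 and 0 in LP DP (5.91 ± 1.12, adjusted p = 0.00418). Reg3b, an antibacterial lectin of enterocytes and Paneth cells, had 596, 30.6 and 93.9 in IEL DP, against 3.09, 0.85 and 0 in LP DP (5.95 ± 1.16, adjusted p = 0.00498). Thus both were high in different libraries, Reg3b and Krt8 in IEL DP library 1 and Fabp2 in IEL DP library 3. Vil1, the microvillus protein villin, was even at 13.9, 13.2 and 15.8 in IEL DP and 0 in all 3 LP DP libraries, but its call (adjusted p = 0.037) was lost in each of the 6 fits with 1 library left out (adjusted p up to 0.106). Cdh1, the E-cadherin gene, did not follow: it had 233, 247 and 404 in IEL DP and 274, 222 and 383 in LP DP, and made up more than any other member of the LP DP sum. Of the 649 genes called higher, 6 had less than 0.5 of the value of both other epithelial libraries in IEL DP library 2, the one with the fewest epithelial counts, against 9 for IEL DP library 1 and 5 for IEL DP library 3. Genes with such a spread between libraries are less likely to be called, so these counts do not measure carry-over among the calls.

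**Figure D5:**
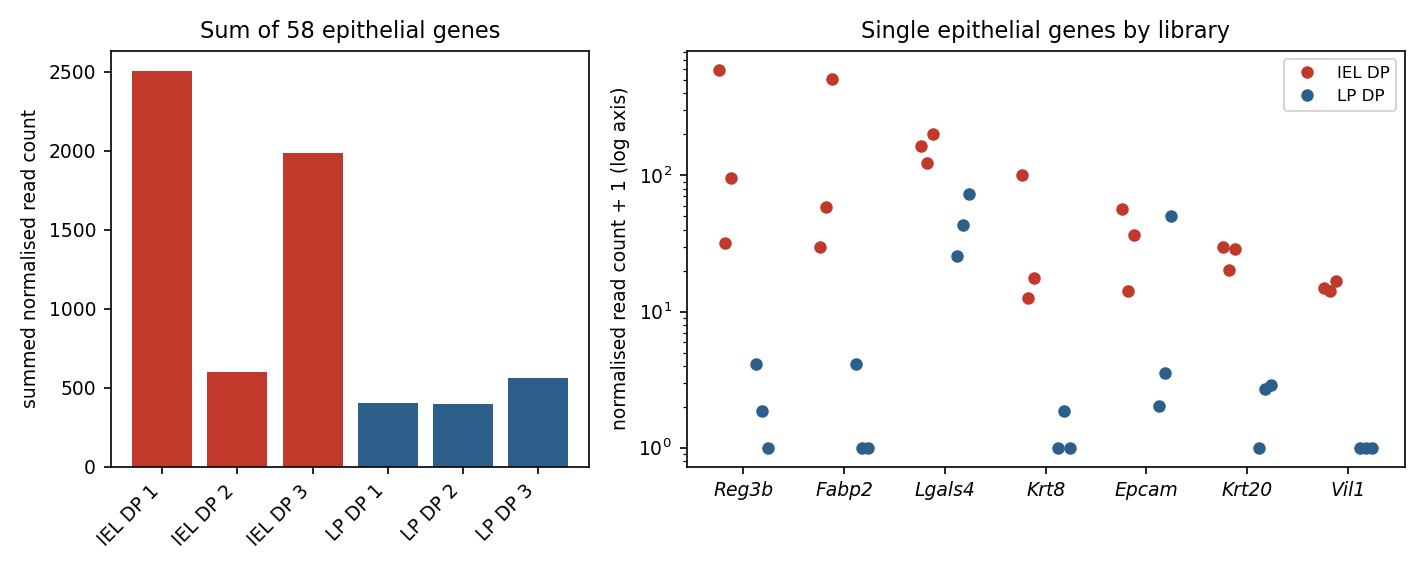
Left, the summed normalised read count of the 58 epithelial genes (y axis, from 0) in each of the 6 libraries; right, 7 single epithelial genes as count + 1 on a log axis, IEL DP in red to the left of LP DP in blue, 1 point per library. IEL DP libraries 1 and 3 sum to 2509 and 1988, IEL DP library 2 to 602 and the LP DP libraries to 398 to 560.

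With the epithelial sum of each library as a covariate, limma called 381 genes, 99 higher and 282 lower in IEL DP, and 365 of these were among the 1487. The sum differs between the sites itself, so this fit also takes up part of the site difference. It also includes Cdh1, which was alike at both sites. Icos, Cd28, Ctla4, Tnfaip3, Ifngr1, Crem, Fosl2, Nr4a1, Dgat1, Ramp3, Itgae, Itgb7, Cxcr6, Tnfsf10, Bcl11b, Gimap1, Ap3m1 and Dtymk were called in that fit and in every other setting tried.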

How the data were processed

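RNA was extracted with beads from sorted, lysed cells and sequenced from Nextera XT libraries, a kit that does not mark strand, per the labels' protocols. Per the submitters' processing notes, TopHat, HTSeq and the mm10 mouse build were used, without versions. The values deposited by the authors are a signal: a read count per gene multiplied by 1 factor per library, given to 2 decimals. How the factors were made is not stated. Nearly all values were whole multiples of 1 step per library, within 0.1 of a step, and dividing by the step recovered whole reads, 5093955 to 8851347 per library.

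Groups came from the labels, with 3 libraries each, called biological replicates; p-values measure the spread between these libraries, which may be technical. Values were taken to log2 after adding 1, so changes of low genes are understated, and fitted with limma 3.58.1 in R 4.3.3 (trended, robust variance, group only) over 15 libraries. IEL CD4+Foxp3+ libraries, known to vary more, were left out. A call needed an adjusted p (Benjamini-Hochberg, over the 13824 genes tested) under 0.05, and every adjusted p is limma's unless edgeR 4.0.16 or DESeq2 1.42.0, run on the recovered reads, is named. Genes named are, in each direction, the 15 largest changes among calls whose higher group averaged 50 or more and whose libraries did not overlap, without epithelial, predicted, small RNA, pseudogene and receptor segment genes; of each list the calls among its 4 smallest p-values; 12 fixed genes; and others said to be picked afterwards or named beside a list's count. The 31 gene lists, the genes taken and the tests were chosen with earlier results of these data known. Gene positions are from GENCODE M21 (GRCm38). The fit was tested on simulated data. Alternatives were other pseudocounts (0.5 and 10), minimum values, scalings, library sets, library weights, a replicate block, the epithelial sum as a covariate and each DP library left out. Intervals on read ratios are exact at 95% and cover counting error only, since PCR reads without molecular identifiers are not independent molecules. Values of some list members are not reported here.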

Additional observations from a re-analysis of the deposited data

How the results depend on the processing

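The count of 1487 genes moved by more than 1.5 times in 4 settings: it was 882 (290 higher, 592 lower) with all 18 libraries, 381 with the epithelial sum as a covariate, and 888 and 965 without IEL DP library 3 and LP DP library 2. Leaving out 1 DP library at a time gave 888 to 1110 calls. In the other settings it ran from 1195 to 2146, the lowest with no minimum value and the highest with DESeq2. Of the 1487, 696 (206 higher, 490 lower) were also called with the 6 DP libraries alone, with all 18, by edgeR and by DESeq2, and 665 (186 higher, 479 lower) in every fit with 1 DP library left out. The split between directions depends on scaling: 56.4% of calls were lower as deposited, but 41.5% with equal library totals (883 higher, 627 lower) and 64.1% with TMM factors (561 higher, 1003 lower). The 12 DP and SP libraries alone, chosen after seeing the data, gave 1442.

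The interaction had 0 calls, but 32 with DESeq2, 1 with no minimum value (Sult1b1) and 1 with the replicate block (Ccl5). The ratio of epithelial sums, 3.75, ran from 2.85 to 4.96 without 1 library. Of genes that did not pass, S1pr1 turned from -0.22 to 0.17 with library weights, 0.74 with the epithelial covariate, 0.79 without IEL DP library 1 and 0.61 without LP DP library 2, with a range of -0.99 to 0.79 over fits without 1 library; Cd4 turned from 0.09 to -0.12 without IEL DP library 3 and to -0.04 without LP DP library 2 (range -0.12 to 0.26); and Cd8a turned from 0.74 to -0.21 with the covariate. The cause of these shifts was not tested.

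Libraries that share a replicate number were not treated as paired in the main fit, and the data do not settle whether they are. The correlations of their deviations between sites were 0.0352, 0.0367 and 0.0524, none above 0.1. Libraries of different numbers gave lower values, from -0.0453 to 0.00812, so each library correlated best with its own number. With the replicate block 1703 genes were called (762 higher, 941 lower).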

Other observations

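Cytosolic ribosomal protein genes, a family picked after its values were seen, fell in IEL DP in 48 of 76 cases and rose in 0, with a median change of -0.34, and Rps2 had means of 2129 in IEL DP and 3544 in LP DP (-0.74, limma adjusted p = 4.08e-05). The count depends on the setting: 20 fell with equal library totals, 58 with TMM factors, 3 with quantile normalisation, 3 with the epithelial sum as a covariate, and 24, 25 and 26 fell without IEL DP library 3, LP DP library 2 and LP DP library 3. Processed pseudogenes, many of which are copies of ribosomal protein genes and may take their reads, moved alike: of 1621 tested, 151 fell (9.32%) and 9 rose (0.56%).

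Genes called lower were more abundant than genes called higher. The median mean count of protein-coding genes was 599 among those lower in IEL DP, 254 among those higher and 132 among those not called. Their transcripts were of similar length, with medians of 3002 bases for lower, 2909 for higher and 3149 for uncalled genes.

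Reads of a gamma-delta receptor constant region were present in these libraries. Whether they came from the sorted alpha-beta cells or from gamma-delta T cells of the hosts was not tested. Tcrg-C4 had 1293, 1576 and 1735 in IEL DP and 723, 662 and 653 in LP DP. It did not pass (1.17 ± 0.39, limma adjusted p = 0.0743), while with the 6 DP libraries alone its adjusted p was 0.00363. Cd244, a receptor of natural killer and intraepithelial cells, behaved alike, at 1832, 1520 and 1899 in IEL DP and 902, 720 and 865 in LP DP (adjusted p = 0.117, and 0.00517 with the 6 DP libraries alone).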
